A study of Arabidopsis thaliana with 12 samples.

Results

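BZIP60 encodes a bZIP factor that switches on genes when unfolded proteins collect in the endoplasmic reticulum. It was examined here with CRT1b, ATERDJ3B and DER1, 3 genes of protein folding and degradation in that compartment, and with AT1G42980 and AT1G43000, the genes directly on either side of BZIP60 on chromosome 1. Every probe set of the ATH1 array that was assigned to a single one of these 6 genes was taken, whatever its value. This gave 7 probe sets, with a pair for DER1 and 1 for each other gene, of the 22746 probe sets tested, and 6 of 13350 genes with a probe set of their own. BZIP60 transcript rose under oligomycin at both times. CRT1b transcript fell at both times, ATERDJ3B and DER1 transcripts fell at 4 h, and the transcripts of both neighbours rose at 4 h.

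The samples were whole seedling cultures of Arabidopsis thaliana Col-0, grown in liquid medium with sucrose to day 9, darkened for 24 h before treatment and not returned to light until harvest. Oligomycin, which blocks the ATP synthase of mitochondria, was given at 10 µM, and control cultures received the same volume of its solvent, ethanol. The 4 groups were oligomycin for 1 h, ethanol for 1 h, oligomycin for 4 h and ethanol for 4 h. Each group had 3 arrays of separate biological replicates, 12 in all, with no mutant or transgene in any group. Each culture held many seedlings, so fewer cells of a type and less RNA per cell cannot be told apart in these values.

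In plants, unfolded proteins in the endoplasmic reticulum activate the membrane protein IRE1, which splices BZIP60 mRNA so that its product moves to the nucleus. There it raises the transcription of chaperone genes, and BZIP60 also raises its own transcript. Calreticulins such as CRT1b are calcium-binding chaperones that hold newly made glycoproteins, ERdj proteins such as ATERDJ3B bring unfolded proteins to the Hsp70 chaperone BiP, and derlins such as DER1 help move misfolded proteins out for degradation. An array intensity gives no separate value for the spliced and the unspliced BZIP60 mRNA. It also gives no value for protein.

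Values below are deposited linear intensities, and differences are in log2(intensity + 16), fitted with limma over all 4 groups. Calls are at a Benjamini-Hochberg adjusted p under 0.05 over all probe sets tested. Of all probe sets, 3.44% were called between oligomycin and ethanol at 1 h, 2.3% upward and 1.14% downward. At 4 h, 36.7% were called, 11.4% upward and 25.3% downward, so a fall at 4 h was common on these arrays. The deposited scaling bears on that balance: falls made up 68.9% of the calls at 4 h as deposited, 60.7% after quantile normalisation, 59.9% after scaling to the hybridisation controls and 47.1% after centring each array on its median. Arrays of 1 group correlated at between 0.975 and 0.993 over probe sets. Of 16 marker genes of leaf, root and seed storage, 2 had a single-gene probe set. RCA, the leaf gene for Rubisco activase, lay between 872.0 and 1250.2 in all 12 samples, and EXPA7, a root hair expansin, lay between 2.9 and 35.1. At 4 h, RCA differed between oligomycin and ethanol by -0.25 (limma adjusted p = 0.0917) and EXPA7 by -0.57 (adjusted p = 0.173). The groups did not overlap for RCA and overlapped for EXPA7. Within the oligomycin cultures, RCA was lower at 4 h than at 1 h by a log2 difference of -0.32 (adjusted p = 0.0349), without overlap. The part of these markers in the results below was not tested.

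BZIP60 transcript was several-fold higher under oligomycin within 1 h and higher again at 4 h. Its probe set read 643.9, 586.5 and 697.8 in the oligomycin cultures at 1 h, against 155.5, 201.5 and 177.6 in the ethanol cultures at 1 h. It read 1270.6, 1247.4 and 1430.7 in the oligomycin cultures at 4 h, against 212.8, 191.8 and 183.8 in the ethanol cultures at 4 h. At each time the lowest oligomycin culture stood above the highest ethanol culture, and every oligomycin culture at 4 h stood above every oligomycin culture at 1 h. The mean was 643 ± 55.7 under oligomycin and 178 ± 23 under ethanol at 1 h (SD, n = 3 each), a ratio of 3.61. At 4 h it was 1316 ± 99.8 under oligomycin and 196 ± 15 under ethanol (SD, n = 3 each), a ratio of 6.71.

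On the log2 scale BZIP60 rose by 1.77 at 1 h (SE 0.11, 95% interval 1.53 to 2.00, limma adjusted p = 1.13e-06). At 4 h it rose by 2.65 (SE 0.11, 2.41 to 2.89, adjusted p = 3.45e-09). Both differences were larger than the spread between replicates. Ordered from the largest rise down, its rise stood at place 58 of 22746 at 1 h and at place 179 at 4 h. The rise at 1 h was 66.6% of the rise at 4 h, the highest such share among the 6 genes. The oligomycin effect was larger at 4 h than at 1 h by 0.89 (SE 0.15, 0.55 to 1.22, adjusted p = 0.00181), a test in which 17.8% of all probe sets were called, 7.2% upward and 10.6% downward.

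Within the ethanol cultures, BZIP60 differed between 4 h and 1 h by 0.13 (95% interval -0.10 to 0.37, adjusted p = 0.662). That comparison called 0.00879% of all probe sets, 2 in number, and none of the 7 described here. Within the oligomycin cultures, where 33.7% were called, 10.8% upward and 22.8% downward, BZIP60 was higher at 4 h than at 1 h by 1.02 (adjusted p = 1.73e-05). The order of its levels was therefore oligomycin at 4 h, oligomycin at 1 h and then the ethanol groups, whose ranges overlapped.

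**Figure D1:**
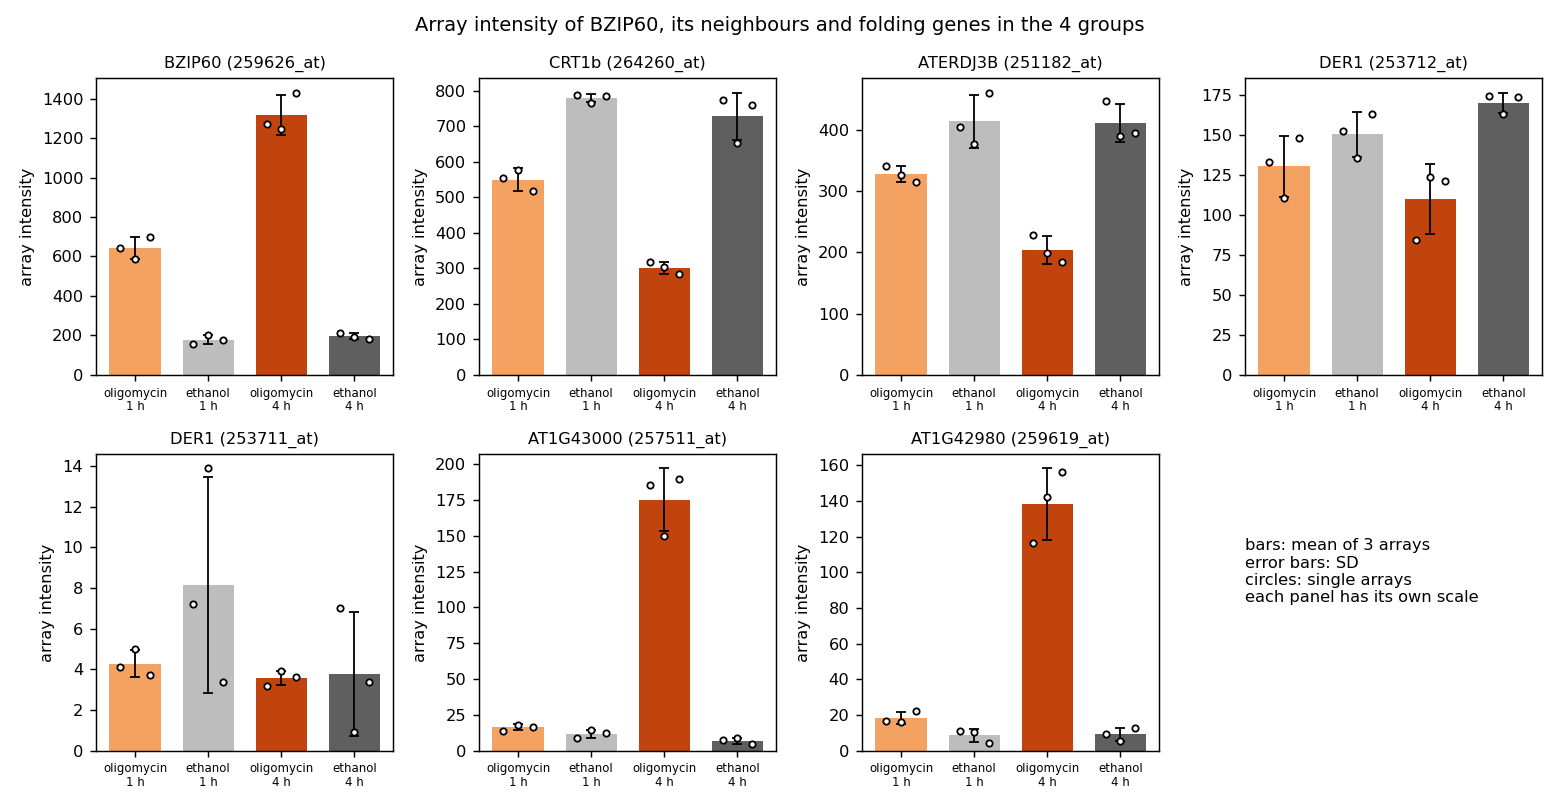
Deposited intensity (linear axis from 0, with its own scale in each panel) of the 7 probe sets of BZIP60, CRT1b, ATERDJ3B, DER1, AT1G43000 and AT1G42980 in the 4 groups. Bars are means of 3 arrays with SD and circles are single arrays. BZIP60 and its neighbours stand highest in oligomycin at 4 h, and CRT1b and ATERDJ3B stand lowest there.

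The calreticulin gene CRT1b moved the other way at both times. Its intensity was 555.9, 578.5 and 516.6 in the oligomycin cultures at 1 h, against 787.3, 765.6 and 786.5 in the ethanol cultures at 1 h. At 4 h it was 317.1, 304.1 and 283.3 in the oligomycin cultures, against 774.4, 651.9 and 759.2 in the ethanol cultures. The groups did not overlap at either time, and the ethanol groups of the 2 times did overlap. CRT1b thus stood at 70.6% of its ethanol mean at 1 h and at 41.4% at 4 h.

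In the limma fit CRT1b fell by 0.49 at 1 h (SE 0.09, adjusted p = 0.00817) and by 1.23 at 4 h (adjusted p = 4.15e-07). It stood at place 329 among the falls at 1 h and at place 304 at 4 h. Without the third oligomycin culture at 1 h, the difference at 1 h was -0.45 and missed the threshold (adjusted p = 0.05). The effect differed between 4 h and 1 h by -0.73 (adjusted p = 0.00169). Scaled to the hybridisation controls that difference was -0.57 and was no longer called (adjusted p = 0.0586). Within the oligomycin cultures, CRT1b was lower at 4 h than at 1 h by a log2 difference of -0.83 (adjusted p = 1.73e-05).

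ATERDJ3B, the co-chaperone of BiP, passed the test at 4 h only, with lower values under oligomycin at 1 h that were not called. It read 341.1, 327.4 and 314.6 in the oligomycin cultures at 1 h, against 404.8, 376.6 and 461.3 in the ethanol cultures at 1 h. The groups did not overlap, yet the difference of -0.32 (SE 0.10) missed the threshold (limma adjusted p = 0.139). With array weights, which count noisier arrays for less, it was -0.38 and was called (adjusted p = 0.0434). At 4 h ATERDJ3B read 228.8, 198.7 and 184.9 in the oligomycin cultures, against 447.0, 390.2 and 396.0 in the ethanol cultures. It fell by 0.96 (adjusted p = 1.35e-05), to 49.7% of its ethanol mean. The effect was further below 0 at 4 h than at 1 h, by -0.64 (adjusted p = 0.00943). That difference was -0.48 when scaled to the hybridisation controls (adjusted p = 0.125).

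DER1, a derlin, was lower under oligomycin at 4 h by a smaller amount. At 1 h its brighter probe set read 132.9, 110.5 and 148.2 in the oligomycin cultures, against 152.4, 135.8 and 163.5 in the ethanol cultures. The groups overlapped at 1 h, with a difference of -0.19 (limma adjusted p = 0.555). At 4 h it read 84.6, 124.1 and 121.2 in the oligomycin cultures, against 174.3, 163.1 and 173.7 in the ethanol cultures. The groups did not overlap at 4 h, and DER1 fell by 0.58 (SE 0.14, adjusted p = 0.0046), to 64.5% of its ethanol mean. Scaled to the hybridisation controls, the difference at 4 h was -0.51 and missed the threshold (adjusted p = 0.0656). The difference between the effects at 4 h and at 1 h was -0.39 and was not called (95% interval -0.81 to 0.03, adjusted p = 0.196).

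The other DER1 probe set was dim, between 0.9 and 13.9 in the 12 samples. It averaged 4.27 under oligomycin and 8.17 under ethanol at 1 h, and 3.57 under oligomycin and 3.77 under ethanol at 4 h. Its difference was -0.23 at 1 h (limma adjusted p = 0.494) and -0.00 at 4 h (95% interval -0.32 to 0.31, adjusted p = 0.991). The DER1 probe sets thus did not both show a fall, and the fall at 4 h rests on the brighter of them.

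The neighbours of BZIP60 were dim in ethanol and stood far higher in oligomycin at 4 h. AT1G43000, the next gene in the order of the TAIR10.1 annotation, read 13.9, 18.0 and 16.6 in the oligomycin cultures at 1 h, against 8.6, 14.1 and 12.3 in the ethanol cultures at 1 h. At 4 h it read 185.9, 149.8 and 189.9 in the oligomycin cultures, against 7.1, 8.7 and 4.3 in the ethanol cultures. The groups overlapped at 1 h, where the difference of 0.22 was not called (limma adjusted p = 0.396). At 4 h they lay far apart, and AT1G43000 rose by 3.07 (SE 0.12, 95% interval 2.82 to 3.33, adjusted p = 1.94e-09).

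AT1G42980, the gene on the other side, read 16.5, 16.0 and 22.3 in the oligomycin cultures at 1 h, against 11.0, 10.3 and 4.5 in the ethanol cultures at 1 h. At 4 h it read 116.3, 142.3 and 156.0 in the oligomycin cultures, against 9.4, 5.4 and 12.7 in the ethanol cultures. The groups overlapped at neither time. The difference of 0.48 at 1 h was not called (SE 0.15, limma adjusted p = 0.11), although with array weights it was 0.58 and passed (adjusted p = 0.0352). At 4 h AT1G42980 rose by 2.62 (adjusted p = 4.03e-08).

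The effect of oligomycin differed between 4 h and 1 h by 2.85 for AT1G43000 (limma adjusted p = 8.41e-07) and by 2.13 for AT1G42980 (adjusted p = 2.68e-05). On this scale AT1G43000 had at 1 h 7.18% of its difference at 4 h and AT1G42980 had 18.5%, against the 66.6% of BZIP60. For CRT1b and ATERDJ3B that share was 40.1% and 33.4%. The size of the neighbours' log2 differences depends on the number added before the logarithm, since their ethanol values are near it, so no fold is given for them. With 1 in place of 16, AT1G43000 differed by 4.55 and AT1G42980 by 3.83 at 4 h, and with 64 they differed by 1.75 and 1.46. All of these were called.

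The other single-gene probe sets of this stretch of chromosome 1 were not called upward, and most of them were dim in every group. AT1G42700, AT1G42705, AT1G42710, AT1G43010, AT1G43140 and AT1G43200 read 14.2 or less in all 12 samples, so each gave little signal to compare. From 20 genes before BZIP60 to 26 genes after it, 10 neighbouring genes had a single-gene probe set. At 1 h none of the 10 was called by limma, beside the 3.44% called of all probe sets. The lowest difference among them was -0.31, for AT1G43010 (limma adjusted p = 0.0868). At 4 h AT1G42980 and AT1G43000 rose, AT1G43020 fell and 7 were not called, a share of calls near the 36.7% of all probe sets. The nearest measured genes beyond the adjacent ones were AT1G42960, 4 genes before BZIP60, and AT1G43010, 3 genes after it.

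AT1G42960 read 948.8, 707.6 and 718.1 in the oligomycin cultures at 4 h, against 919.3, 866.3 and 925.6 in the ethanol cultures at 4 h. Its groups overlapped, and its difference was -0.20 (limma adjusted p = 0.181). AT1G43010 was dim and differed by -0.10 (adjusted p = 0.461). AT1G43020, 4 genes after BZIP60, read 11.8, 12.6 and 9.4 in the oligomycin cultures at 4 h, against 27.5, 35.2 and 21.1 in the ethanol cultures at 4 h, and fell by 0.68 (adjusted p = 0.00255). The genes between these positions that had no single-gene probe set were not analysed here.

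**Figure D2:**
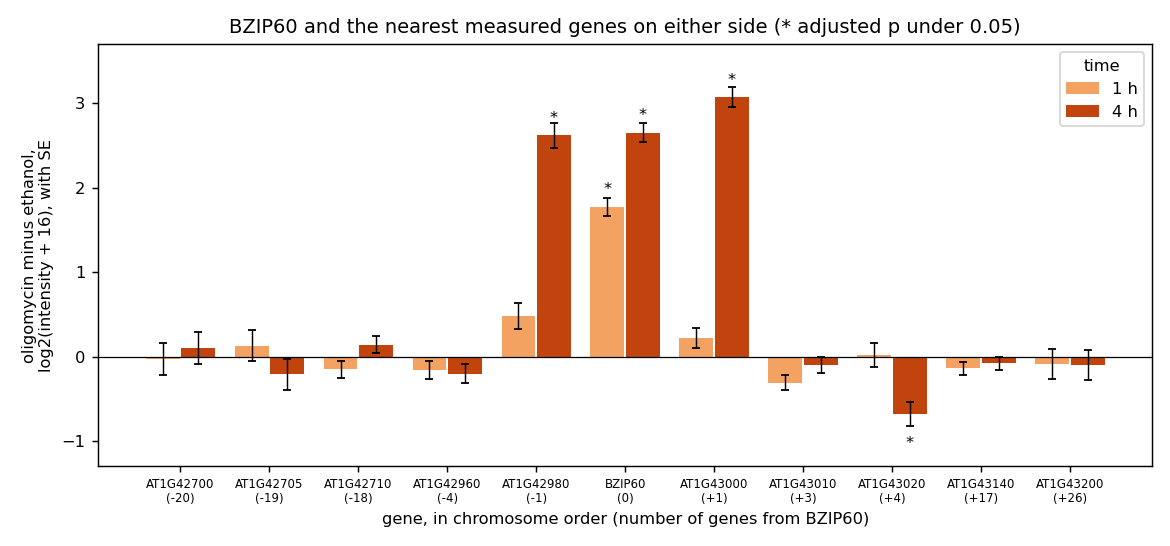
Difference in log2(intensity + 16) between oligomycin and ethanol at 1 h and at 4 h for BZIP60 and 10 neighbouring genes, by place in gene order relative to BZIP60 at 0. Columns are limma differences with SE, and asterisks mark an adjusted p under 0.05. At 4 h BZIP60 and the genes on either side of it stand above 2 and no other gene shown was called upward.

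For the wider pathway, a list of 73 genes of the endoplasmic reticulum was compiled by role, and 22 of them had a single-gene probe set. The other 51 were not analysed here, among them those of IRE1, BiP, the Hsp90 chaperone SHD, the main calnexin and most protein disulfide isomerases. At 1 h BZIP60 alone of the 22 rose, CRT1b alone fell and 20 were not called, against the 3.44% called among all probe sets. The 18 genes other than the members lay between -0.34 and 0.24 at 1 h. At 4 h, 3 rose, 10 fell and 9 were not called, beside the 36.7% called of all probe sets. Calls were more common among brighter probe sets: of 10754 with a mean intensity of at least 50, 1788 were called upward and 4040 downward. The median difference of the 22 was -0.26 at 4 h, against -0.10 over all probe sets and -0.19 over those with a mean intensity of at least 50. Without the members, 2 of 18 rose and 7 fell, with a median of -0.20. These medians moved with the scaling: that of the 22 was -0.15 after quantile normalisation, against -0.05 over all probe sets, and -0.10 after centring on medians, against 0.06 over all. Without the members it was -0.14 and -0.04 under those scalings. The number of falls among the 22 was 9 after quantile normalisation or centring on medians and 8 when scaled to the hybridisation controls, with 3 rises in each.

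Among the sensors and transcription factors, 5 of 11 were measured. BZIP28, a transcription factor held in the endoplasmic reticulum membrane and freed by cleavage in the Golgi, was close to its ethanol level at 1 h and higher at 4 h. It read 183.8, 205.3 and 213.6 in the oligomycin cultures at 4 h, against 106.5, 137.8 and 123.2 in the ethanol cultures at 4 h. These groups did not overlap. BZIP28 rose by 0.65 at 4 h (limma adjusted p = 0.000406), a ratio of 1.64, with a difference of -0.03 at 1 h. The difference between the effects was 0.68 (adjusted p = 0.00796).

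BZIP17, a related membrane-bound factor, lay just past the threshold at 4 h, at -0.28 (limma adjusted p = 0.0497). That call was lost in 9 of the 12 fits that left out 1 array, and it was lost with quantile normalisation (-0.15) and with centring on medians (-0.12). S1P, the protease that cleaves such factors, differed by -0.29 at 4 h and AT4G20310 by -0.08, neither of them called.

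All 4 measured genes of the Hsp70 and Hsp90 chaperones and co-chaperones, of 12 listed, fell at 4 h, with a median of -0.83, and all 4 fell under each other scaling tried. Of all probe sets 25.3% were called downward at 4 h, and of those with a mean intensity of at least 50 it was 4040 of 10754. None of the 4 genes was called at 1 h. Besides ATERDJ3B they were ATERDJ2A and ATERDJ2B, homologues of the yeast translocon protein Sec63, and AT4G16660. ATERDJ2A read 130.8, 118.1 and 117.2 in the oligomycin cultures at 4 h, against 223.6, 249.0 and 248.2 in the ethanol cultures at 4 h, and fell by 0.89 (limma adjusted p = 2.29e-06). ATERDJ2B read 36.1, 42.8 and 41.9 in the oligomycin cultures at 4 h, against 81.8, 77.0 and 67.0 in the ethanol cultures at 4 h, and fell by 0.70 (adjusted p = 5.72e-05). Neither pair of groups overlapped. AT4G16660 fell by 0.76 (adjusted p = 7.36e-05). At 1 h ATERDJ2B had a difference of 0.15 that was not called, so its effect differed between the times by -0.84 (adjusted p = 0.000659).

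Of 9 lectin chaperones and glucosidases, CRT1b and AT5G07340 were measured, and both fell at 4 h. At that time 25.3% of all probe sets were called downward, and 4040 of the 10754 with a mean intensity of at least 50. AT5G07340 read 74.7, 66.0 and 58.8 in the oligomycin cultures at 4 h, against 131.6, 117.7 and 126.5 in the ethanol cultures at 4 h, and fell by 0.78 (limma adjusted p = 0.000742). The groups did not overlap. PDIL5-1, the single measured gene of 15 for disulfide and prolyl isomerases and oxidases, differed by -0.23 at 4 h and was not called (adjusted p = 0.0893).

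The genes of degradation did not move one way. Of 5 measured of 11 listed, DER1 fell at 4 h and DER2.1, another derlin, rose. DER2.1 read 297.0, 254.9 and 271.3 in the oligomycin cultures at 4 h, against 215.6, 216.3 and 189.7 in the ethanol cultures at 4 h, with a rise of 0.38 (limma adjusted p = 0.0106). The groups did not overlap. DER2.2, a further derlin, differed by 0.04 at 4 h, OS9, a lectin that recognises misfolded glycoproteins, by -0.06 and UBC32, a ubiquitin-conjugating enzyme of the endoplasmic reticulum, by -0.06, and none of these was called.

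Of 13 genes listed for the translocon and oligosaccharyltransferase, 5 were measured and 2 fell at 4 h. That share is near the 4040 of 10754 called downward at 4 h among probe sets with a mean intensity of at least 50. Over all probe sets it was 25.3%. AT2G34250 read 444.8, 483.8 and 491.7 in the oligomycin cultures at 4 h, against 680.9, 779.6 and 708.1 in the ethanol cultures at 4 h, and fell by 0.59 (limma adjusted p = 0.000957). AT1G29310 fell by 0.63 (adjusted p = 0.000751). Neither gene's groups overlapped. AT1G78720, AT3G48570 and AT3G60540 differed by -0.14, -0.14 and -0.18 at 4 h and were not called. For each list gene the probe set with the highest mean over the 12 samples was used, and the dimmer one of AT3G48570 differed by 0.12 at 4 h (adjusted p = 0.675). Neither of the 2 listed survival factors had a single-gene probe set.

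**Figure D3:**
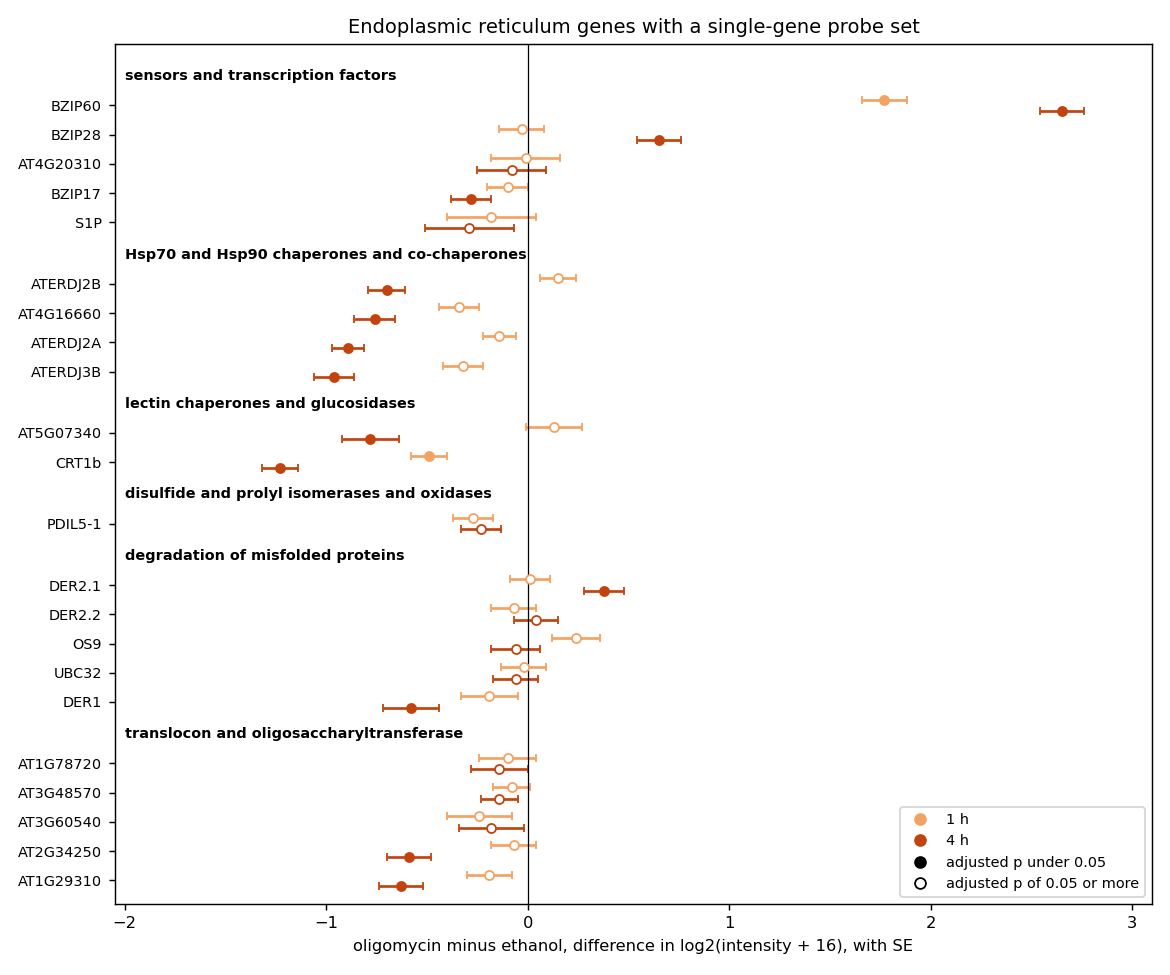
Difference in log2(intensity + 16) between oligomycin and ethanol for the 22 measured genes of the endoplasmic reticulum list, by role, at 1 h and at 4 h. Circles are limma differences with SE, filled where the adjusted p is under 0.05. At 4 h BZIP60, BZIP28 and DER2.1 are called upward and 10 genes downward.

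Across the 22 genes, BZIP60 was called upward and CRT1b downward at both times, 11 genes were called at 4 h and not at 1 h, and 9 were called at neither. The difference between the times passed its own test for 8 of the 22, in the direction of a rise for 2 and of a fall for 6, beside the 7.2% and 10.6% of all probe sets called in those directions. Of the 10754 probe sets with a mean intensity of at least 50, that test called 1152 and 1906 in those directions. Scaled to the hybridisation controls, 5 of the 22 passed that test. Within the ethanol cultures, none of the 22 was called between 4 h and 1 h by limma, where 2 of all probe sets were. Within the oligomycin cultures, 3 were higher at 4 h than at 1 h and 9 were lower, beside the 10.8% and 22.8% of all probe sets called so. Of the 10754 brighter probe sets, 1800 and 3654 were called so.

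**Figure D4:**
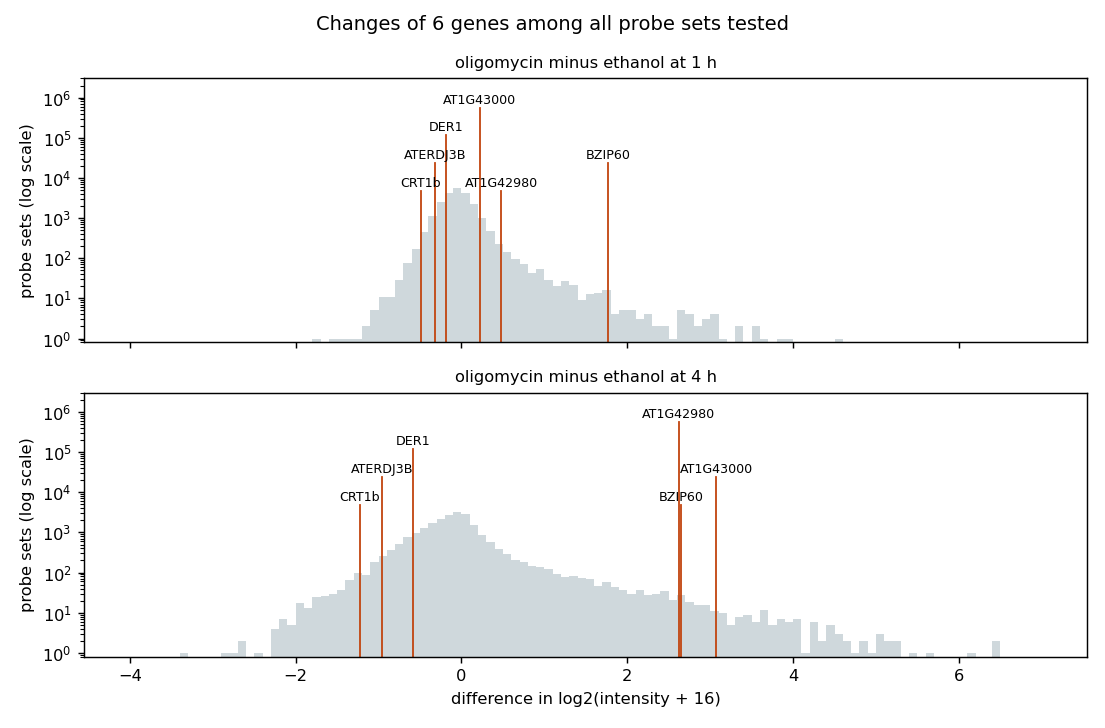
Number of probe sets (log axis) by difference in log2(intensity + 16) between oligomycin and ethanol at 1 h (upper panel) and at 4 h (lower panel), with lines at 6 genes. Heights of the lines carry no value. BZIP60 lies far out in the upper tail at 1 h, and at 4 h its neighbours lie in that tail with it, while CRT1b, ATERDJ3B and DER1 lie below 0.

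The probe sets were also compared by pattern over the 12 samples, by Pearson's r on log2(intensity + 16). These values describe samples that share the 4 groups, so a gene with steps of the same relative shape between the groups has a high r. Among 5602 single-gene probe sets with a mean of at least 50, AT5G43450 (r = 0.998), AT5G42830 (r = 0.996), AT3G25610 (r = 0.996), AT4G36500 (r = 0.995) and AT3G45730 (r = 0.994) were most like BZIP60. Their differences were between 1.92 and 3.51 at 1 h and between 3.03 and 5.01 at 4 h, all above those of BZIP60. Most like CRT1b were AT5G11560 (r = 0.993), AT1G23030 (r = 0.989), AT1G78260 (r = 0.988), AT3G62360 (r = 0.988) and AT3G16560 (r = 0.987).

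Between the members, CRT1b and ATERDJ3B had an r of 0.980, while BZIP60 had an r of -0.950 with CRT1b and -0.926 with ATERDJ3B. BZIP60 had an r of 0.859 with AT1G43000 and 0.884 with AT1G42980. CRT1b had an r further from 0 with these neighbours, -0.953 with AT1G43000 and -0.964 with AT1G42980. The brighter DER1 probe set had an r of -0.774 with BZIP60 and 0.734 with CRT1b, and the dim one had -0.301 and 0.364.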

How the data were processed

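The deposited table held 1 intensity per probe set and array. The submitters' processing notes name RMA and give no version of it. The intensities deposited by the authors were linear, from 0 to 6149.7 with 166 zeros, with a 2% trimmed mean of 100.0 in every array, which is not RMA's usual log2 form, so how they were scaled is not known. Of 22810 probe sets, 64 controls were left out and 22746 tested. Of these, 13513 had a single gene in the platform annotation (13436 with a TAIR10.1 locus), 503 had several and 8730 none.

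Each value was taken as log2(intensity + 16) and fitted with limma 3.58.1 in R 4.3.3 over all 4 groups (8 residual and 4.14 prior degrees of freedom), with eBayes and Benjamini-Hochberg adjustment over all probe sets. The fit was checked on simulated data. Groups follow the sample labels, which call the samples biological replicates, and 3 arrays a group limit the precision. Alternatives were quantile normalisation, centring on medians, an added value of 1 or 64, leaving out the dimmest 40% of probe sets, a trend with a robust prior, array weights, the 6 samples compared, a replicate block, leaving out each array, and scaling to 18 hybridisation controls. The last was chosen after seeing the data.

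Named are all members, the measured genes of the list called at 1 h or 4 h with the others as values or ranges, the neighbours of BZIP60, and the 5 probe sets most like BZIP60 and the 5 most like CRT1b. The members and lists were chosen with earlier results of these data known. Some list genes are shown by locus, and the list entered AT4G20310 as S2P, AT4G16660 as HSP70-17 and AT5G07340 as CNX2. It entered AT2G34250, AT1G29310 and AT1G78720 as SEC61A, AT3G60540 as SEC61B and AT3G48570 as SEC61G. AT1G43000, AT1G42980 and other genes outside the list with a locus only have no name or role in the tables used.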

Additional observations from a re-analysis of the deposited data

Results flagged for a closer look

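The effect of oligomycin differed between 4 h and 1 h by limma's test of the difference itself (adjusted p under 0.05 over all probe sets) for 11 of the genes described. These 11 are listed because they passed that test, which called 17.8% of all probe sets. Of the 10754 probe sets with a mean intensity of at least 50, it called 1152 upward and 1906 downward. The effect at 4 h minus that at 1 h was 0.89 for BZIP60, 2.85 for AT1G43000, 2.13 for AT1G42980 and 0.68 for BZIP28. It was -0.73 for CRT1b, -0.64 for ATERDJ3B, -0.76 for ATERDJ2A, -0.84 for ATERDJ2B and -0.91 for AT5G07340. For AT2G34250 it was -0.52 and for AT1G43020 it was -0.70, and each of these 2 calls was lost in 8 of the fits that left out 1 array.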

How the results depend on the processing

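Recomputed values were tallied for the members and for the list genes and neighbours called at 1 h or 4 h, and not for the other genes named. Of these values, 1778 kept their direction and call, 51 lost the call, 8 gained it and 6 turned in sign. An uncalled value whose sign turned with a move of less than 1 SE was taken as unchanged. The 6, all uncalled, were AT5G07340 within ethanol (-0.13) and at 1 h (-0.04) and BZIP17 at 1 h (0.01) without ethanol 1 h replicate 1, where leaving out 1 array gave -0.13 to 0.18, -0.04 to 0.28 and -0.19 to 0.01, and the dim DER1 probe set at 4 h (0.16) and within oligomycin (0.12) after centring, and at 4 h (0.17) with 1 added. That probe set was left out with the dimmest 40%. With the replicate number as a block, limma called 515 probe sets upward and 235 downward at 1 h, 2584 and 5694 at 4 h, and 1 within ethanol. Same-numbered samples deviated together with r between -0.09 and 0.17, so little deviation was shared by number. The labels do not say whether same-numbered cultures were paired. The 783 calls at 1 h became 441 with the 6 samples compared, 513 with 1 added and 477 scaled to the hybridisation controls, and leaving out 1 array gave 441 (without oligomycin 1 h replicate 3) to 833, with 521 without ethanol 1 h replicate 1. The 4043 calls for the difference between effects became 2212 scaled to the hybridisation controls, and those in the list of 22 genes 5 in place of 8. The 2 calls within ethanol became 0 with the 6 samples, 1 after centring, with 1 added or scaled to the hybridisation controls, 42 without the dimmest 40% and 4 with the trend, and leaving out 1 array gave 0 to 133, the highest without ethanol 1 h replicate 2. Of the neighbours at 1 h, 1 was called with array weights and 0 otherwise. In the list of 22, leaving out 1 array left 1 to 2 calls at 1 h and 12 to 13 at 4 h. Falls made up 33.2% of the calls at 1 h, 27.6% after quantile normalisation and 22.8% after centring, and 59.5% of those for the difference between effects, 40.8% after centring and 32.5% scaled to the hybridisation controls. The cause of these moves was not tested. Dim probe sets, such as the neighbours in ethanol, limit the precision of ratios.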
